A study of Catharanthus roseus with 35 samples.

Results

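CATHA_34488 is a gene of Catharanthus roseus, the Madagascar periwinkle, that encodes an ATP-binding cassette (ABC) transporter of subfamily B (ABCB). It is 1 gene of the 35722 in the deposited tables, and it was chosen by its measured levels: higher in idioblast than in mesophyll protoplasts, and higher still in whole leaves. The levels that chose it are therefore given as a description, without a test, and tests are kept for growth condition and leaf age, which played no part in the choice.

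RNA was sequenced from 35 samples of the cultivar Little Bright Eye. The first experiment used fluorescence-activated cell sorting (FACS) of protoplasts (cells whose walls have been digested away) made from leaves of indoor plants (25 °C, 16 h light). It gave idioblast protoplasts (3 samples), mesophyll protoplasts (3 samples), unsorted total protoplasts (3 samples) and whole leaves (2 samples). The second used whole leaves without their central vein, from leaf pairs 1, 2, 3 and 4, pair 1 being the youngest. The plants stood outdoors in direct sunlight or indoors (25 °C, 16 h light), and each leaf pair and growth condition has 3 samples. The FACS experiment was prepared with a Smart-seq2 kit and leaf pairs 1 and 4 with a TruSeq kit, both read on Illumina (23 samples), while leaf pairs 2 and 3 were read as long Nanopore reads (12 samples). Replicates of the FACS experiment came from separate groups of plants, with leaves and the 3 kinds of protoplasts taken as paired samples of these groups. Which samples pair with each other was not stated. Those of the leaf pairs came from 3 plants per growth condition.

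ABC transporters use ATP to move small molecules across membranes. Those of subfamily B sit mostly in the plasma membrane of plant cells, where some carry auxin and others carry alkaloids. In Coptis japonica, a berberine-producing plant, the ABCB proteins CjABCB1 and CjABCB2 take alkaloid up into cells. C. roseus leaves make monoterpenoid indole alkaloids (MIAs) through several cell types, from the internal phloem-associated parenchyma (IPAP) through the epidermis to the idioblasts and laticifers. Intermediates must therefore cross membranes between cells, and only a few of the transporters for this are known.

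Total counts per Illumina sample were 10263533 to 17625811 (median 12670642). Replicates of a group had Spearman correlations of 0.962 to 0.991 across genes, except the 2 leaf samples of the FACS experiment, with 0.876, so these leaves are given one by one. The idioblast marker DAT followed the labels of the sorted cells. DAT, the last enzyme of vindoline synthesis, had 76.9 to 106 CPM in idioblast protoplasts, against 0 to 0.249 CPM in mesophyll protoplasts. CPM are counts scaled to a common library size, by TMM over the 23 Illumina samples. The 8 epidermis markers summed to 177 to 245 CPM in idioblast protoplasts, against 2473 to 2591 CPM in mesophyll protoplasts. Total protoplasts had 2026 to 2911 CPM, so the mesophyll sort held RNA of epidermis genes too. Of the mean sum of 2536 CPM in mesophyll protoplasts, the epidermis gene LAMT gave 1493 CPM and TDC 16.2 CPM. The 2 photosystem II genes listed as chloroplast markers summed to 174 to 257 CPM in mesophyll protoplasts. Their sum was 163 to 191 CPM in total and 64.4 to 98.4 CPM in idioblast protoplasts.

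CATHA_34488 was found in all 23 Illumina samples. It had 22.5, 24.4 and 34.6 CPM in idioblast protoplasts, from 324, 291 and 297 read pairs. Mesophyll protoplasts had 0.813, 1.47 and 0.124 CPM, from 7, 14 and 1 read pairs. Total protoplasts lay between them, with 1.61, 2.93 and 4.33 CPM from 15, 33 and 40 read pairs. Every idioblast sample was above every total protoplast sample, and every total protoplast sample was above every mesophyll sample. The leaves of the same experiment had 60.4 and 37.1 CPM, from 901 and 358 read pairs, both above the highest idioblast sample.

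Leaf pairs of the second experiment reached still higher levels. Leaf pair 1 had 38.4, 49.4 and 67.0 CPM outdoors, against 98.0, 116 and 118 CPM indoors. Leaf pair 4 had 126, 114 and 174 CPM outdoors, against 177, 225 and 237 CPM indoors. All 12 of these samples were above the highest idioblast sample, and the group means spanned 266-fold between leaf pair 4 indoors and mesophyll protoplasts. These comparisons run across experiments and library kits, which cannot be told apart from the material. With 664 to 3246 read pairs per leaf sample the counting error was 1.76 to 3.88% of the count, against 26.7 to 100% for the 1 to 14 read pairs of mesophyll protoplasts.

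**Figure D1:**
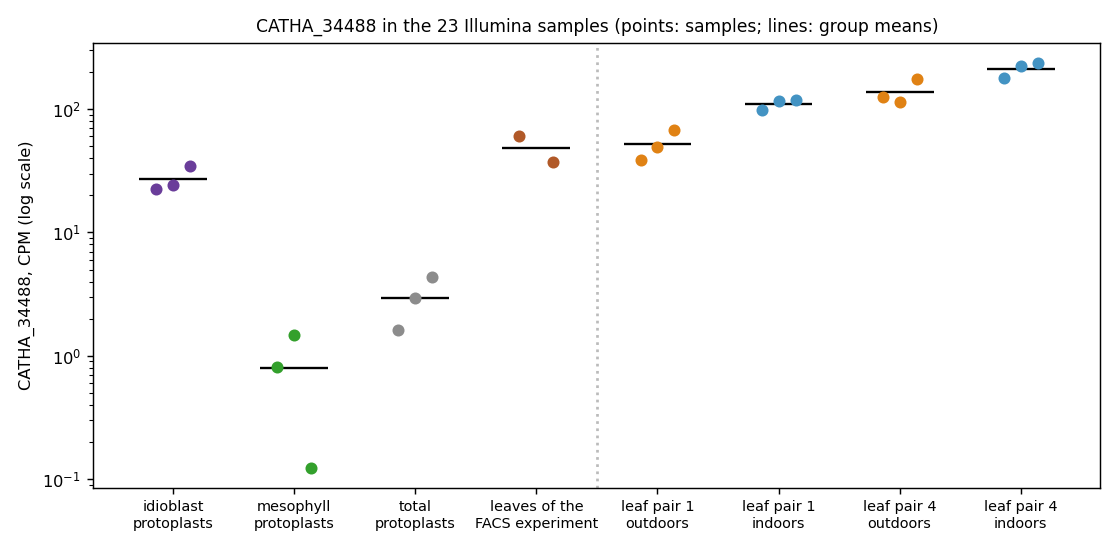
Level of CATHA_34488 in CPM, on a log axis, in each of the 23 Illumina samples; points are samples and lines are group means, with the FACS experiment left of the dotted line and leaf pairs 1 and 4 right of it. Idioblast protoplasts lie at 22.5 to 34.6 CPM, mesophyll protoplasts at 0.124 to 1.47 CPM, and every leaf sample at 37.1 CPM or more.

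Ordered by group mean, CATHA_34488 stood at 213 ± 31.6 CPM in leaf pair 4 indoors, 138 ± 31.6 in leaf pair 4 outdoors, 111 ± 11.1 in leaf pair 1 indoors, 51.6 ± 14.5 in leaf pair 1 outdoors, 48.8 ± 16.5 in the leaves of the FACS experiment, 27.2 ± 6.55 in idioblast protoplasts, 2.96 ± 1.36 in total protoplasts and 0.801 ± 0.671 in mesophyll protoplasts (SD, n = 3 each, n = 2 for the leaves of the FACS experiment). Of the 7 neighbouring pairs in this order, 2 overlapped. Leaf pair 4 outdoors overlapped with leaf pair 1 indoors, and leaf pair 1 outdoors overlapped with the leaves of the FACS experiment. The second of these pairs also differs in experiment and library kit, which cannot be told apart from the leaf material.

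The order that chose the gene, with both FACS leaf samples above every idioblast sample and every idioblast sample above every mesophyll sample, was held by 2.13% of the 18701 genes with enough counts in the Illumina samples. With the 12 leaf pair samples, of another experiment and library kit, required to be above every idioblast sample too, the share was 1.31%. As ratios of group means, CATHA_34488 was 33.9-fold higher in idioblast than in mesophyll protoplasts (log2 5.08) and 9.19-fold higher in idioblast than in total protoplasts (log2 3.20). The log2 ratio of idioblast protoplasts to leaves was -0.84. That of total protoplasts to leaves was -4.04, so that leaves held 16.5 times the level of total protoplasts. Leaving out 1 library at a time moved the idioblast to mesophyll value between log2 4.57 and 5.86. The log2 ratio of mesophyll to total protoplasts was -1.88 with all libraries, -1.38 without mesophyll replicate 3, the library with 1 read pair, and -2.66 without mesophyll replicate 2. In these mixed samples, fewer cells of a type and less RNA per cell cannot be told apart. Protoplasts went through wall digestion and leaves did not. In every ratio of protoplasts to leaves, effects of isolation therefore cannot be told apart from differences in cell type.

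Leaves were also set against cells for the idioblast markers. CATHA_34488 was chosen as higher in leaves than in idioblast protoplasts, so its own value there restates the choice. The level of DAT in leaves was 0.859 times that in idioblast protoplasts. The leaf samples of DAT, with 60.2 and 93.6 CPM, overlapped its idioblast samples, with 76.9 to 106 CPM. The level of D4H, which carries out the step before DAT, was 0.400 times that in idioblast protoplasts. CATHA_34488 in leaves had 1.80 times its level in idioblast protoplasts. Set against total protoplasts, leaves had 16.3 times as much DAT, 5.91 times as much D4H and 16.5 times as much CATHA_34488. On a scale from mesophyll protoplasts (0%) to idioblast protoplasts (100%), total protoplasts stood at 8.18% for CATHA_34488, 5.17% for DAT and 2.4% for D4H. Markers other than those of idioblasts were looked at in the leaves of the FACS experiment too. Both leaf samples were above every idioblast sample for 4 of 6 IPAP, 7 of 8 epidermis and 1 of 2 photosystem II genes. Over all genes this held for 36.3%. The 6 IPAP markers summed to 104 to 180 CPM in idioblast protoplasts, against 310 and 1910 CPM in leaf samples 1 and 2. The 8 epidermis markers summed to 177 to 245 CPM in idioblast protoplasts, against 771 and 3051 CPM in leaf samples 1 and 2. Leaf sample 1, with 60.4 CPM of CATHA_34488, had the lower sums of both lists, and leaf sample 2, with 37.1 CPM, had the higher ones. The idioblast markers DAT and D4H went the same way, with sums of 927 and 1030 CPM in leaf samples 1 and 2. The part of other cell types in the leaf level of the gene was not tested.

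The paper lists more candidate transporters of the idioblast, further ABC genes among them, than the 9 set beside CATHA_34488 here. These 9 are named by ID in its text. They belong to the MATE family (antiporters that move alkaloids into vacuoles in other plants), the PUP family (purine permeases) and the NPF family (nitrate and peptide transporters). They were picked as genes high in idioblasts, so that 8 of the 9 having every idioblast sample above every mesophyll sample, against 15.1% of all genes, restates how they were chosen. Both leaf samples were above every idioblast sample in 1 of the 9, against 36.3% of all genes, and 0 had both separations. The choice of genes high in idioblasts bears on this count too, so 36.3% is not a like share. Of the 2821 genes with every idioblast sample above every mesophyll sample, 399 had both separations. Most genes with the first separation thus lacked the second, and the 0 is not read as a trait of the candidates. The MATE genes CATHA_21679 and CATHA_21682 were 4.30 and 2.6 higher on the log2 scale in idioblast protoplasts than in leaves, the PUP gene CATHA_27908 was 5.65 higher and the NPF gene CATHA_26821 was 3.79 higher, where CATHA_34488 was lower. The nearest to it was the MATE gene CATHA_29545, which was 48.2-fold higher in idioblast than in mesophyll protoplasts and within 0.08 of its leaf level on the log2 scale. The gene of the list that was higher in leaves, the PUP gene CATHA_27932, had 24 read pairs over the 3 idioblast samples and 0 over the mesophyll samples.

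A further list held 7 transporters implicated earlier in the MIA pathway, called known MIA transporters here. Of these, CrTPT2, an ABC transporter of subfamily G thought to export catharanthine to the leaf surface, was the 1 gene with the order of CATHA_34488. It had 1.84 to 7.48 CPM in idioblast protoplasts, 0 to 1.16 CPM in mesophyll protoplasts, and 32.1 and 95.3 CPM in leaf samples 1 and 2 of the FACS experiment, so that it was higher in the leaf sample in which CATHA_34488 was lower. Its mesophyll level came from 10 read pairs, all in 1 sample. The paper holds its expression too low in both sorted cell types to give weight to the difference. Of these 7 genes, 6 had both leaf samples above every idioblast sample, as did 36.3% of all genes. Among the 6 was CrNPF2.9, which exports strictosidine from the vacuole, at log2 -6.97 in idioblast protoplasts relative to leaves. The other ABCB gene with a readable description, CATHA_13196 (p-glycoprotein 9), went the other way: it was 2.34-fold higher in idioblast than in mesophyll protoplasts, but 7.26 higher on the log2 scale in idioblast protoplasts than in leaves, and 6.0 higher in total protoplasts than in leaves. The same log2 ratio of total protoplasts to leaves was -4.04 for CATHA_34488.

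**Figure D2:**
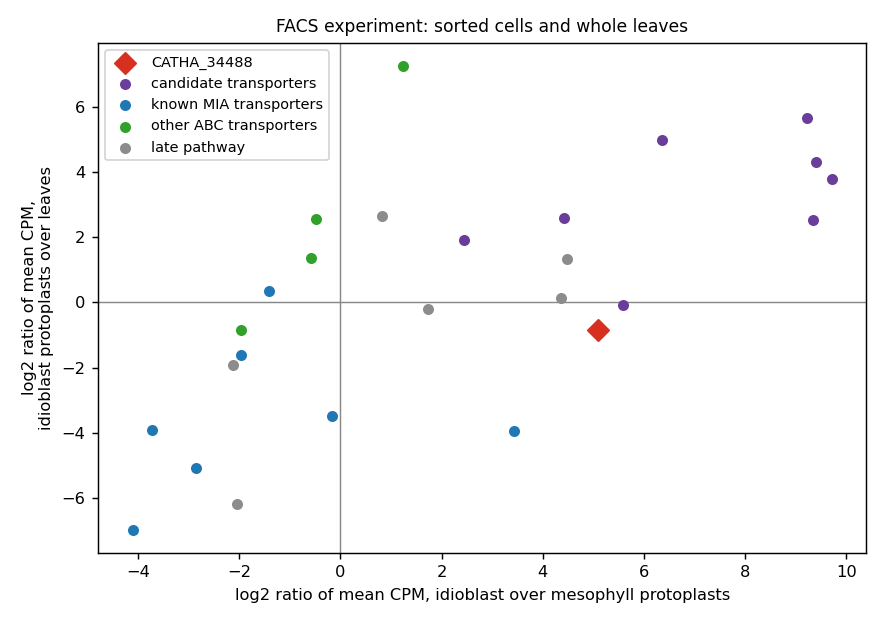
Each point is 1 gene of the FACS experiment, with the log2 ratio of mean CPM of idioblast over mesophyll protoplasts on the horizontal axis and of idioblast protoplasts over leaves on the vertical axis; genes with 3 or fewer read pairs in a group are left out. CATHA_34488 (diamond) lies at 5.08 and -0.84, below most candidate transporters, whose vertical values reach 5.65.

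The growth condition was compared within leaf pair 1 and within leaf pair 4 by edgeR's quasi-likelihood test on the 12 Illumina leaf samples. A call required a Benjamini-Hochberg adjusted p of 0.05 or below, with log2 fold changes of 1 or above, or -1 or below. In leaf pair 1, CATHA_34488 fell outdoors: its mean was 51.6 ± 14.5 CPM outdoors and 111 ± 11.1 CPM indoors (SD, n = 3 each), a log2 fold change of -1.05 (SE 0.21, adjusted p = 0.00514 by edgeR). Of the 17299 genes tested, 2.45% were called lower. In leaf pair 4 it averaged 138 ± 31.6 CPM outdoors and 213 ± 31.6 CPM indoors (SD, n = 3 each), a log2 fold change of -0.70 (SE 0.21, adjusted p = 0.0171 by edgeR), which passed the p threshold but not the fold threshold. There 11.4% of genes were called lower. In both leaf pairs all 3 outdoors samples were below all 3 indoors samples, a separation shared by 12.9% of genes. The outdoors to indoors difference was 0.35 larger on the log2 scale, that is less negative, in leaf pair 4 than in leaf pair 1, with a 95% interval of -0.30 to 0.99 (adjusted p = 0.505 by edgeR's interaction term), so a difference between the 2 leaf pairs in this response was not shown. For this term 3.99% of genes were called. The call in leaf pair 1 was lost without outdoors replicate 1 (log2 -0.87) or without indoors replicate 3 (log2 -0.999), with adjusted p of 0.0220 and 0.0216. In leaf pair 4 the adjusted p was 0.0525 to 0.0691 when outdoors replicate 1 or 2 or indoors replicate 2 or 3 was left out.

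Leaf age was compared within each growth condition, between leaf pair 4 and leaf pair 1 of the same plants. The main edgeR test compared group means and did not use this pairing, which only the alternative fit with plants as a replicate block did. Outdoors, CATHA_34488 rose in leaf pair 4, with a log2 fold change of 1.35 (SE 0.21, adjusted p = 0.000331 by edgeR), with 8.41% of genes called higher. Indoors the log2 fold change was 1.00 (SE 0.21, adjusted p = 0.00194 by edgeR), where 11.5% of genes were called higher. Plant by plant, leaf pair 4 held 3.10, 2.19 and 2.5 times the level of leaf pair 1 outdoors and 1.89, 2.07 and 2.04 times indoors, so the gene was higher in the older leaf in all 6 plants. All leaf pair 4 samples were above all leaf pair 1 samples in both growth conditions, a separation shared by 21.9% of genes, and 2.23% of genes had this separation together with the one between growth conditions. The indoors call sits on the fold threshold: it was lost with log2 fold changes of 0.940 to 0.999 in each of 5 other fits (0.999 with plants as a replicate block, adjusted p = 0.000632), while the adjusted p stayed at 0.0123 or less. It was also lost without leaf pair 1 indoors replicate 1 (log2 0.931) and without leaf pair 4 indoors replicate 2 (0.955) or 3 (0.940).

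**Figure D3:**
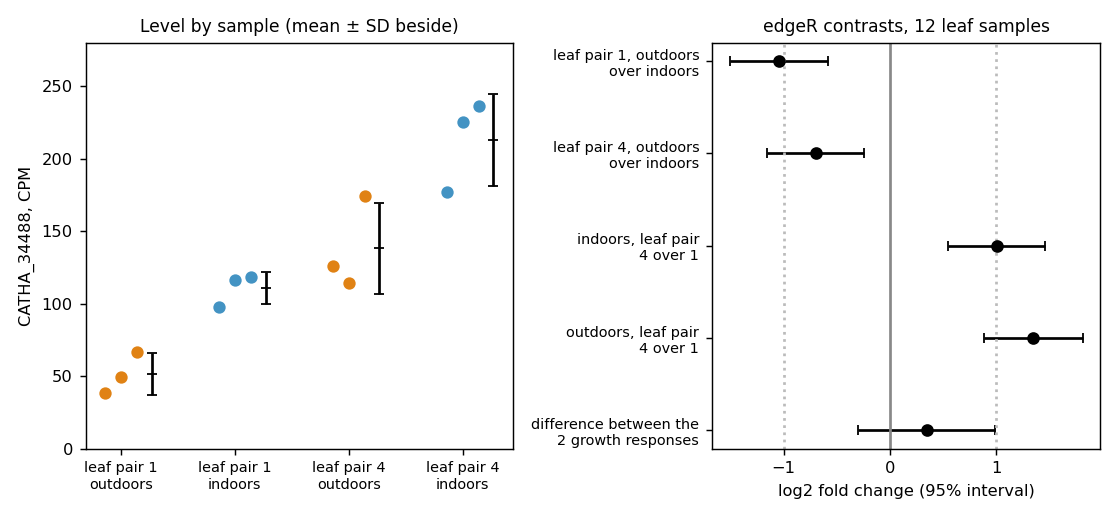
Left, CPM of CATHA_34488 in the 12 Illumina leaf samples (points) with mean ± SD beside them. Right, log2 fold changes with 95% intervals for the 5 contrasts, with dotted lines at the fold threshold of 1 in either direction; 4 of the 5 intervals lie on 1 side of 0, and that of the difference between the 2 growth responses runs from -0.30 to 0.99.

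Markers of idioblasts and other cells also moved between these leaves. The 2 idioblast markers summed to 550 to 747 CPM in leaf pair 1 outdoors, against 870 to 928 CPM indoors. In leaf pair 4 they summed to 444 to 538 CPM outdoors, against 940 to 993 CPM indoors. Their sum was lower outdoors, as CATHA_34488 was, but most of it was D4H. By edgeR, D4H was called lower in leaf pair 4 (log2 -1.10, adjusted p = 8.41e-05). In leaf pair 1 it had log2 -0.47 (adjusted p = 0.0225 by edgeR), under the fold threshold. DAT was not called by edgeR, with log2 -0.37 in leaf pair 1 (adjusted p = 0.240) and -0.34 in leaf pair 4 (adjusted p = 0.217). The sum of the 8 epidermis markers was lower outdoors too. It was 1255 to 1436 CPM in leaf pair 1 outdoors, against 1858 to 2017 CPM indoors. In leaf pair 4 it was 143 to 255 CPM outdoors, against 540 to 748 CPM indoors. Of these epidermis markers, 0 of 8 and 5 of 8 were called lower by edgeR in leaf pairs 1 and 4, where 11.4% of all genes were called lower in leaf pair 4. In leaf pair 1 the call count was 0 by DESeq2 too, and 3 of 8 had an unadjusted p under 0.05 by edgeR. Of the 6 IPAP markers, 0 were called outdoors in leaf pairs 1 and 4, against 6.57% and 17.2% of all genes. Their unadjusted p by edgeR was under 0.05 for 2 and 1 of them. The sum of 2 photosystem II genes was higher outdoors. It was 31.6 to 38.0 CPM, against 20.6 to 24.0 CPM indoors, in leaf pair 1. In leaf pair 4 it was 48.3 to 49.1 CPM, against 38.5 to 43.2 CPM. By edgeR, 1 of the 2 was called higher in leaf pair 1 (log2 1.38). With leaf age the 2 idioblast markers differed from each other: indoors, DAT fell in leaf pair 4 (log2 -1.03, adjusted p = 0.00202 by edgeR) and D4H had a log2 fold change of 0.33 (adjusted p = 0.0487 by edgeR), under the fold threshold, while their sum was 940 to 993 CPM in leaf pair 4 and 870 to 928 CPM in leaf pair 1. The 8 epidermis markers were called lower in leaf pair 4 than in leaf pair 1 for 8 of 8 genes outdoors and 5 of 8 indoors, where 13.9% of all genes outdoors and 10.8% indoors were called lower, and of the 6 IPAP markers 2 were called lower in each growth condition. Of 2 photosystem II genes, 1 was called higher in leaf pair 4 in each growth condition. The part of these shifts in the values of CATHA_34488 was not tested.

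The transporter lists were looked at in the same comparisons, in which 6.57% of all genes were called in either direction outdoors in leaf pair 1, 17.2% in leaf pair 4, and 22.3% indoors and 22.4% outdoors with leaf age. Of the 9 candidate transporters, 0 were called in either direction outdoors in leaf pair 1 by edgeR and 0 by DESeq2, with 7 at an unadjusted p under 0.05 (median log2 fold change -0.41, against -0.01 over all genes tested). By edgeR, 1 was called lower in leaf pair 4, the PUP gene CATHA_27932 (log2 -3.01, median of the list -0.67, against -0.09 over all genes). With leaf age, the same PUP gene was the 1 of 9 called higher indoors, and 0 of 9 were called outdoors by edgeR, with 5 at an unadjusted p under 0.05 and 1 called by DESeq2. Of the 7 known MIA transporters, 0 were called in leaf pair 1 by edgeR and 0 by DESeq2, with 2 at an unadjusted p under 0.05. In leaf pair 4, CrNPF2.9 and the MATE transporter CrMATE2 fell outdoors (log2 -1.44 and -1.14) and CrNPF2.5 rose (log2 2.9). With leaf age, CrNPF2.4 rose indoors (log2 1.47), and outdoors CrNPF2.5 rose (log2 2.14) and CrNPF2.9 fell (log2 -1.24). Both rises of CrNPF2.5 start from few reads, with 10 read pairs over leaf pair 4 indoors and 22 over leaf pair 1 outdoors. Among the 5 other ABC transporters, 2 rose outdoors in both leaf pairs: CATHA_1468 of subfamily C, at log2 1.48 in leaf pair 1 and 1.93 in leaf pair 4, and CATHA_7988 of subfamily I, at log2 1.37 and 1.99. In growth condition both had the opposite sign to CATHA_34488. With leaf age, CATHA_1468 rose in leaf pair 4 outdoors (log2 1.21), as CATHA_34488 did. The ABCB gene CATHA_13196 had log2 fold changes of -0.04 and -0.10 outdoors, and of 0.02 outdoors and 0.09 indoors between leaf pairs 4 and 1, and was not called.

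Late genes of vindoline synthesis went mostly against CATHA_34488 with leaf age. Of the 9 late pathway genes, 6 fell and 2 rose in leaf pair 4 indoors (median log2 -1.31, against 0.05 over all genes tested), and 4 fell and 1 rose outdoors (median -0.999, against 0.00 over all genes). Over all genes, 10.8% were called lower indoors and 13.9% outdoors. Among those that fell were the first steps from tabersonine: T16H2, a tabersonine hydroxylase, at log2 -2.36 indoors and -2.04 outdoors, and 16OMT, which methylates its product, at -1.67 and -2.38. PRX1, a peroxidase thought to couple vindoline and catharanthine, had the highest r with CATHA_34488 over the leaves of the 9 late genes. It fell outdoors in leaf pair 1 (log2 -1.53) and in leaf pair 4 (log2 -1.70), and rose in leaf pair 4 indoors (log2 1.05). In the sorted cells it did not follow, with 52.4 to 57.4 CPM in idioblast protoplasts, against 201 to 270 CPM in mesophyll protoplasts.

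**Figure D4:**
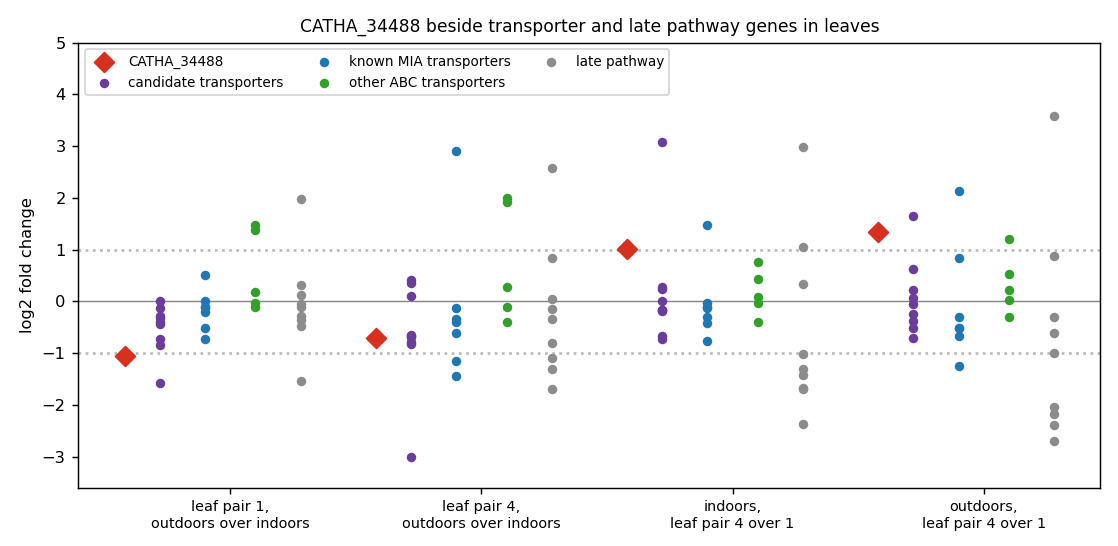
Log2 fold changes of CATHA_34488 (diamonds) and of the genes of 4 lists (points) in the 4 leaf comparisons, with dotted lines at the fold threshold of 1 in either direction. CATHA_34488 lies at -1.05 and -0.70 outdoors over indoors and at 1.00 and 1.35 for leaf pair 4 over leaf pair 1, where the median of the late pathway genes is -1.31 indoors and -0.999 outdoors.

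Leaf pairs 2 and 3 were read by Nanopore at 85976 to 732961 reads per sample (median 498480), and CATHA_34488 was under the low-count filter there. Its CPM in these libraries is on another scale than that of the Illumina samples. In leaf pair 2 it had 1, 1 and 4 reads outdoors, against 1, 5 and 9 reads indoors, the indoors sample with 1 read being the shallowest library. In leaf pair 3 it had 5, 7 and 5 reads outdoors, against 5, 3 and 16 reads indoors. Summed over samples, the log2 ratio of outdoors to indoors was -1.54 in leaf pair 2 (95% exact binomial interval -3.19 to -0.09) and -0.55 in leaf pair 3 (-1.53 to 0.41), where the intervals cover counting error only. Between leaf pairs 3 and 2 the log2 ratio was 1.33 outdoors (-0.09 to 2.96) and 0.33 indoors (-0.66 to 1.37). In edgeR without the filter, the adjusted p for growth condition was 0.371 in leaf pair 2 and 0.733 in leaf pair 3. For leaf age it was 0.901 outdoors and 0.978 indoors, so no difference was detectable at this depth. In leaf pair 3, the difference between growth conditions rested on indoors replicate 3, the sample with 16 reads, and its log2 fold change turned to 0.47 without it. The indoors difference between leaf pairs 3 and 2 likewise turned to -0.58. In leaf pair 2, the edgeR value for growth condition was -1.46 with all samples, -2.22 without outdoors replicate 3 and -0.96 without indoors replicate 3. Outdoors, the value for leaf pair 3 over 2 was 1.36 with all samples and 2.12 without leaf pair 2 replicate 3.

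The genes with the pattern most like that of CATHA_34488 were found by Pearson's r over log2(CPM + 1). Over the 23 Illumina samples, whose points share experiment, kit and group, the 10 highest values of r were 0.929 to 0.969, and 0.406% of genes reached 0.9. The highest was CATHA_32260, with 11.8 CPM on average in idioblast, 2.49 in mesophyll and 2.88 in total protoplasts, 28 CPM in the leaves beside them, and 31.4 to 50 CPM on average in leaf pairs 1 and 4. It was followed by CATHA_18760 (r 0.963), described as an abscisic stress-ripening protein, which had 39.9 CPM in idioblast and 0 CPM in mesophyll protoplasts and 170 to 422 CPM in the leaf pairs. Next came CATHA_5645 (r 0.959), with 44.2 CPM in idioblast and 12.8 CPM in mesophyll protoplasts. Of the listed genes, CrTPT2 (r 0.891), DAT (r 0.878) and CATHA_29545 (r 0.862) were the most like it over these samples.

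Over the 12 Illumina leaf samples alone, the likeness was with other genes. The 5 highest values of r were 0.963 to 0.974, led by CATHA_15985 (r 0.974) and CATHA_22431 (r 0.971), and 0 of the 5 were among the 10 of the wider comparison. CATHA_22431 had 100 CPM on average in leaf pair 1 outdoors, 233 indoors, 283 in leaf pair 4 outdoors and 646 indoors, the same order of the 4 groups as in CATHA_34488, but 6.82 CPM in idioblast and 5.07 CPM in mesophyll protoplasts. Of the listed genes, PRX1 had r 0.878 and CATHA_27932 had r 0.802 over the leaves, whereas CrTPT2 had r -0.07, DAT -0.42 and CATHA_29545 -0.08. With Spearman's rho in place of Pearson's r, 20% of the 10 genes were kept.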

How the data were processed

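For the 23 Illumina samples, the authors deposited raw counts per gene, made with Trimmomatic 0.39, HISAT2 and featureCounts 2.0.1 on their own gene models, with no strand option stated, so overlapping or antisense genes and close copies are uncertain. For the 12 Nanopore samples, the authors deposited estimated counts (Salmon 1.4.0 and minimap2 are named by the submitters), which were rounded to whole numbers here. Of the deposited gene IDs, 0 matched the RefSeq table of symbols.

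Counts were filtered with filterByExpr, scaled by TMM and tested with edgeR 4.0.16 (robust glmQLFit, glmQLFTest) in R 4.3.3, with p-values adjusted over all genes of a table; the SE is the log2 fold change over the square root of F. P-values measure the spread between plants. Levels are CPM; DESeq2 1.42.0 was an alternative, and figures used Python 3.11.15. The fits were tested on simulated data. No replicates agreed within sampling noise.

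CATHA_34488 and the lists (candidate and known transporters, other ABC transporters, late pathway, markers) were chosen with earlier results of these data known. Named genes are these and those with the highest r, 10 over 23 samples and 5 over 12. Within a growth condition, equal replicate numbers in different leaf pairs mark one plant; their deviations from group means correlated at -0.05 to 0.24 for leaf pairs 4 and 1 indoors and 0.33 to 0.48 outdoors.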

Additional observations from a re-analysis of the deposited data

Results flagged for a closer look

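The response of CATHA_34488 itself to growth condition did not pass the test for a difference between leaf pairs 4 and 1. It did for 3 of the 8 epidermis markers, the only listed genes called by edgeR for this term, where 3.99% of all genes were called. The interaction in edgeR was log2 -2.75 for TDC (SE 0.65, adjusted p = 0.0308), -1.86 for LAMT (SE 0.46, adjusted p = 0.0355) and -2.72 for SLS2 (SE 0.44, adjusted p = 0.00816). Each was lower outdoors by more in leaf pair 4 than in leaf pair 1. The other 5 epidermis markers were not called. Groups held 2 or 3 samples, too few to look for single samples that stand apart.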

How the results depend on the processing

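No value of CATHA_34488 in leaf pairs 1 and 4 changed direction under any of the alternatives run. The call for leaf pair 4 over 1 indoors was lost with DESeq2 (0.97), RLE scaling (0.97), no low-count filter (0.997), the 21-sample fit (0.94) and the replicate block (0.999), all as log2 fold changes, where the value reported, 1.00, lay on the threshold. Leaving out 1 sample at a time gave log2 0.93 to 1.11 there, -1.28 to -0.87 for leaf pair 1 outdoors over indoors, and -0.91 to -0.58 for leaf pair 4, where the adjusted p ranged from 0.00594 to 0.0691. In the 21-sample fit that last comparison had an adjusted p of 0.0998. With the replicate block the other calls of CATHA_34488 were as before (leaf pair 4 over 1 outdoors 1.36, adjusted p = 0.000328); growth conditions share only a number between plants, and there the block gave -1.08 and -0.71. Of the 10 genes most like CATHA_34488, 20% were kept with Spearman's rho, 60% with log2(CPM + 0.1) and 60% without the leaves of the FACS experiment. Depth limits leaf pairs 2 and 3, with 1 to 16 reads of the gene per sample, and mesophyll protoplasts, with 1 to 14.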
